A study of Mus musculus with 2 samples.

Results

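The genes of pre-mRNA splicing factors and heterogeneous nuclear ribonucleoproteins (hnRNPs) were followed through 3 sorted populations of mouse small intestinal epithelial cells. Members were chosen by name alone, as every gene whose symbol in the platform's probe annotation begins with Srsf, Sfrs, Hnrnp, Hnrp, Snrp, Sf3a, Sf3b or Lsm followed, where the family is numbered, by a digit. This gave 57 genes of 16390 on the array, measured by 59 probes. They fall into an SR family (15 genes), an hnRNP family (14), an snRNP family (12), an SF3 family (7) and an Lsm family (9). Symbols were updated, so that some members now bear other names: Scaf4, Scaf11, Clasrp, Srek1, Sugp2 and Sfswap in the SR family and Edc3 in the Lsm family. Sfrs10 was kept as annotated, because the gene table lists that older symbol for both Tra2b and Srsf2.

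All mice combined the alleles Atoh1-crePGR, Lgr5-EGFP-IRES-creERT2 and a Rosa26-tdTomato reporter. Injections of RU486 on 5 consecutive days activated the Atoh1-driven Cre, and tdTomato then marked cells with active Atoh1-Cre and their descendants for good. Sorting took place 20 days after recombination on a pool of 4 mice and gave EGFP+ve/tdTomato-ve cells (EGFP only, Lgr5 cells without a recorded Atoh1 history), EGFP+ve/tdTomato+ve cells (double positive, Lgr5 cells of Atoh1 origin) and EGFP-ve/tdTomato+ve cells (tdTomato only, other descendants of Atoh1-expressing cells). All 3 populations thus share the alleles and the RU486, each is 1 pooled sample, and an Atoh1 history is recorded only where the Cre was active during the injections. Each of 2 two-colour arrays set 1 tdTomato population, labelled with Cy3, against the EGFP-only population, labelled with Cy5, without a dye swap.

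Introns are removed by the spliceosome, whose small nuclear ribonucleoproteins (snRNPs) carry a ring of Sm proteins around their RNA, with a related ring of Lsm proteins on the U6 RNA. The SF3a and SF3b complexes belong to the U2 snRNP, which recognises the branch point. SR proteins bind exons and promote their inclusion, while hnRNPs coat nascent transcripts and often oppose them. In the intestinal epithelium, proteins such as the Esrp regulators are known to set epithelial patterns of exon inclusion.

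Upstream sequences of members from 4 families are shown first, because they stood at or near the low end of their families in both comparisons with EGFP-only cells, and were picked after their values were seen. Each run is the 250 bases before the gene start listed by RefSeq for build GRCm38.p6, written 5′ to 3′ in the direction of the gene. Capitals mark the motifs searched.

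Srsf1 (chr11:88047123-88047372, plus strand): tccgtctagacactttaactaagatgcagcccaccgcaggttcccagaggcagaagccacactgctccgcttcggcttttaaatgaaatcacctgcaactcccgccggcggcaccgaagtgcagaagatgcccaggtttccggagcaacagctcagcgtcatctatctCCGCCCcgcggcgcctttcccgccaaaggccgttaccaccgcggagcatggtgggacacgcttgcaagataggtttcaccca

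Hnrnpk (chr13:58402118-58402367, minus strand): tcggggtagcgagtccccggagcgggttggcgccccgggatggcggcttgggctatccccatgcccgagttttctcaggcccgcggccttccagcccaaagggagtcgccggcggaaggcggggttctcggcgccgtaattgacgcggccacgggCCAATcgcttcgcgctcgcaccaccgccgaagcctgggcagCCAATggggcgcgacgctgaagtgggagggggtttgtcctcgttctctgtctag

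Snrpa (chr7:27196272-27196521, minus strand): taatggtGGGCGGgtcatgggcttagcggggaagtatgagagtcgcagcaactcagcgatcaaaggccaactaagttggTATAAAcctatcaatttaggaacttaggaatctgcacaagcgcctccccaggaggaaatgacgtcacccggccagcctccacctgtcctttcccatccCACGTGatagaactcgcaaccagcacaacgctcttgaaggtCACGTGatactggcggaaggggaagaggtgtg

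Lsm8 (chr6:18848385-18848634, plus strand): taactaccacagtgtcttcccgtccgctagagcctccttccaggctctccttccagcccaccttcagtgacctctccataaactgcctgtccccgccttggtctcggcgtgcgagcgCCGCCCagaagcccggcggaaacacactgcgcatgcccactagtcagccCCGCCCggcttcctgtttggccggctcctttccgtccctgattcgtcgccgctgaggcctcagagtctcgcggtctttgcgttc

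Both strands were searched for 5 strings of letters, none of which contains another. The CCAAT box, searched by the letters of its name, stood in Hnrnpk at 95 and 54 bases before the start. It lay in 18 of 50 member promoters (36%), beside 35.5% of the promoters of 13127 genes on the array, with 9 of 13 hnRNP promoters (69.2%) at the high end of the families and 1 of 14 SR promoters (7.14%, Srsf2) at the low end. The GC box, searched as GGGCGG, stood on the reverse strand in Srsf1 at 82 bases and in Lsm8 at 133 and 84 bases before the start. In Snrpa it stood as written, at 243 bases before the start. It lay in 35 of the 50 (70%), beside 49.5% of all, from 3 of 6 SF3 promoters to 12 of 14 SR promoters (85.7%). The E-box, searched as CACGTG, stood in Snrpa at 73 and 32 bases before the start. It lay in 4 of 50 member promoters (8%), beside 7.32% of all. The ETS core, searched as CCGGAAGT, lay in 7 of the 50 (14%), beside 4.39% of all, and in none of the 10 snRNP or 7 Lsm promoters. The TATA box, searched as TATAAA, stood in Snrpa at 171 bases before the start. It lay in 3 of the 50 (6%), beside 10.0% of all. Of the 57 members 50 had a promoter in the table, 11 of these with more than 1 listed start, of which the first listed was used. These matches describe letters in a window and are neither binding sites nor linked to any ratio by a test.

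The comparisons rest on 1 array each and were not tested, so genes were counted by size. The EGFP-only RNA was measured on both arrays, and its normalized log2 levels differed between them with an SD of 0.083 over 15640 probes and 0.11 over the 59 member probes. The widest gap among members was 0.38, for Lsm4. This is technical spread only. Of the 59 member probes, 57 exceeded the mean of blank spots by over 2 SD (above background) in all 4 channels, and none was saturated. Of the labelled tissue's markers, Epcam, Cdh1, the keratins and Cldn7 gave 4 annotated genes of 6, of which each tdTomato population showed 4 and EGFP-only cells 3, without Krt19. Splicing members gave bright spots: with probes divided into 4 equal classes by EGFP-only intensity, 37 of 59 member probes lay in the brightest class on the first array. Bright spots are where the normalizations differ. In that class the median log2 ratio of all probes was −0.08 after loess, −0.30 in the authors' deposited ratios and −0.67 with median centring alone. A direction is therefore given below together with the number of members that kept it under 6 scalings: normexp with loess, the deposited ratios, blank subtraction with loess, an offset of 0, quantile normalization and median centring. The deposited ratios, quantile normalization (−0.23) and median centring set the brightest class lower than loess did. Bright spots thus keep a sign below 0 more easily than a sign above 0. Shares of all genes given beside such counts are not matched for brightness.

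In the comparison of double-positive with EGFP-only cells, which asks how Lgr5 cells of Atoh1 origin differ from other Lgr5 cells, the splicing genes stood slightly lower as a group and 1 of them clearly lower. The 57 members had a median log2 ratio of −0.21, beside −0.01 over 11774 genes. Only Srsf1 was at least 2-fold lower, beside 0.34% of all genes, and no member was at least 2-fold higher, beside 5.1%. At 1.5-fold, 4 members were lower (4.12% of all genes) and 1 higher (10.7%). Below 0 lay 40 of 57 (51.1% of all genes), of which 38 stayed below under every scaling (45.2%). These shares are not matched for the brightness of member spots. Sfrs10, Sugp2 and Clasrp stayed above 0 under every scaling, beside 25% of all genes, and 16 members had a sign that depended on the scaling. Sugp2 (103 in EGFP-only against 117 in double-positive cells) and Clasrp (99.9 against 107) were dim spots. Clasrp came down to 0.004 with median centring.

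**Figure D1:**
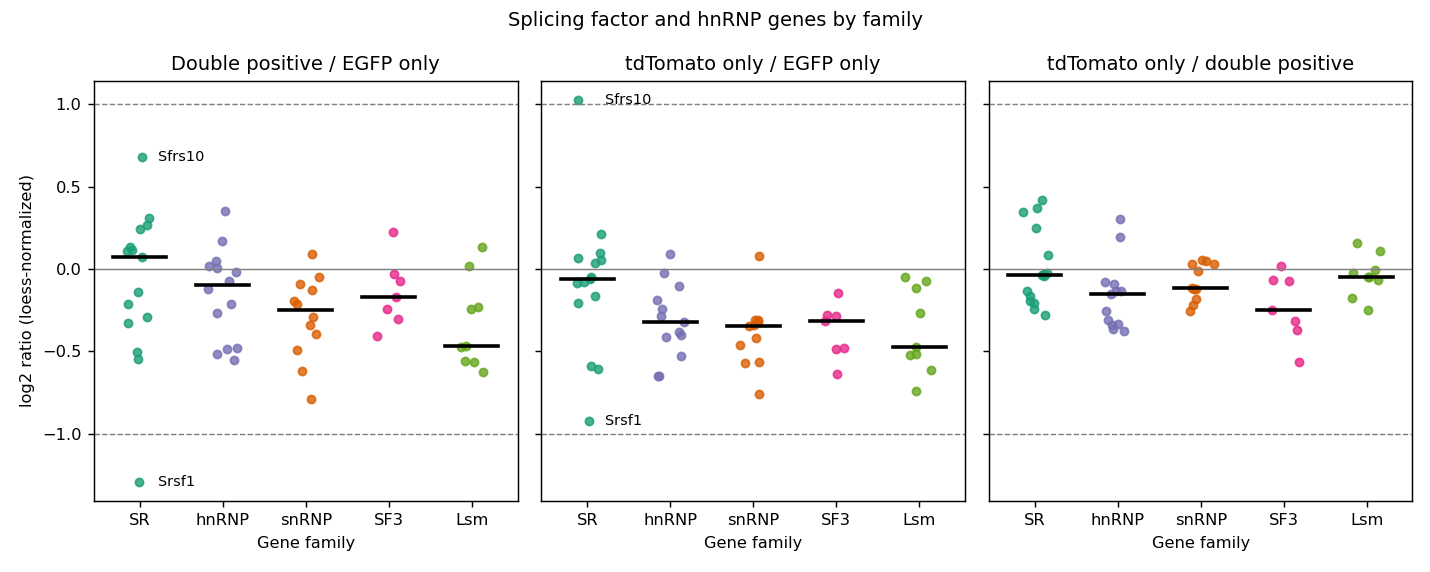
The log2 ratio (y axis, loess-normalized) of every measured member is drawn by gene family (x axis) for the 3 comparisons, with 1 point per gene, a black bar at the family median and dashed lines at 2-fold. Srsf1 lies lowest at −1.29 in the first panel and Sfrs10 highest at 1.02 in the second, while in the third panel all points lie between −0.56 and 0.42.

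Among SR proteins the widest range was seen. Srsf1, the archetypal SR protein that defines exons and also acts in mRNA export and translation, had a spot intensity of 1013 for EGFP-only against 301 for double-positive cells on the first array, and of 1085 for EGFP-only against 424 for tdTomato-only cells on the second. Both EGFP-only values were alike, and both Cy3 values were lower. Spot intensities are not normalized between the 2 dyes, here and below, so directions are read from the ratios. Its double-positive ratio was 2.45-fold lower (log2 −1.29, and −1.29 to −1.79 over the 6 scalings). Sfrs10 went the other way, with 487 in EGFP-only against 542 in double-positive cells, and 461 against 676 in tdTomato-only cells. It was the highest member, 1.60-fold higher in double-positive cells (log2 0.68, scalings 0.19 to 0.77).

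The classical SR genes other than Srsf1 lay between Srsf1 and Sfrs10. Srsf7, which promotes exon inclusion and export, had 4238 against 1666 in the first pair of channels (log2 −0.55), and Srsf5 had 2031 against 900 (log2 −0.51). Srsf4 stood at −0.33 and Srsf2, which sits on exonic enhancers, at −0.29. All 4 of these were below 0 under every scaling. Srsf6 stood at 0.24 with 1004 against 782, and Srsf9 at 0.07 and Srsf11 at 0.13, but their signs turned with median centring. Of the SR-related genes, Scaf4, whose product binds the tail of RNA polymerase II, stood at 0.31, with a sign that depended on the scaling, and Sugp2 at 0.27. Over 15 genes the family median was 0.07, turning to −0.18 when taken from deposited ratios and to −0.47 under median centring, so the SR family as a whole had no settled direction. Under every scaling 7 of its genes were below 0 and 3 above, and 5 had a sign that depended on the scaling.

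For the 14 hnRNP genes the median was −0.10 (−0.91 under median centring), with 8 below 0 under every scaling, none above, and 6 that depended on it. None was past 1.5-fold after loess, but 6 were at least 1.5-fold lower in the deposited ratios (15.5% of all genes), among them Hnrnpc, Hnrnpk, Hnrnpa3 and Hnrnpdl. The lowest were Hnrnpk (log2 −0.55; 791 against 383), which binds C-rich RNA and DNA, and Hnrnpc (−0.52; 8865 against 3222), which binds uridine tracts and guards against inclusion of cryptic exons. Hnrnpa3 and Hnrnpdl followed at −0.49 and −0.48. Hnrnpl, a CA-repeat binding protein, was highest at 0.35 with 1579 against 1252, and its relative Hnrnpll stood at 0.17; both were below 0 with median centring. Hnrnpa2b1 (0.05), Hnrnpul1 (0.02) and Hnrnpf (0.01) were near 0 after loess, with signs that depended on the scaling (deposited ratios −0.43, −0.06 and −0.47). For Hnrnpa3 the 2 probes disagreed: one gave 776 against 579 (log2 0.13), the other 4988 against 1339 (−1.11), so its mean stands for neither probe.

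Among the snRNP genes 11 of 12 lay below 0, and their median was −0.25 (deposited ratios −0.59), with 10 below 0 under every scaling. Of the Sm ring, Snrpb, which encodes the SmB protein, was lowest with 2436 against 881, or 1.73-fold (log2 −0.79). Its tissue-restricted relative Snrpn stood at −0.40. The other measured ring genes came closer to 0, with Snrpd1 at −0.34, Snrpd3 at −0.29, Snrpg at −0.21, Snrpf at −0.13 and Snrpd2 at −0.09. Snrpf was a dim spot, with 96.4 against 93.9. All 7 of these genes, Snrpn included, were below 0 under every scaling. They are not the whole ring, since Snrpe was not among the members. Of the U1 proteins, which meet the 5′ splice site, Snrpa had 1256 against 551 (log2 −0.62) and Snrpc −0.49, while Snrnp70 stood at 0.09 with 2496 against 1578. The U2 protein genes Snrpa1 and Snrpb2 had −0.19 and −0.05, the latter at intensities of 77.4 and 85.4, barely above the blanks. The signs of Snrnp70 and Snrpb2 depended on the scaling.

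The median of the 7 SF3 genes was −0.17, with 6 below 0 under every scaling. Sf3b5 (−0.41) and Sf3a3 (−0.30) were lowest. Sf3b1, the large scaffold that clamps the branch point, stood at −0.24, with 178 against 134. Sf3b2 had −0.17, Sf3b3 −0.07 and Sf3a2 −0.03, and Sf3a1 was highest at 0.22, a sign that median centring turned.

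The Lsm genes had the lowest median of the 5 families, −0.47 over 9 genes, beside −0.01 over all genes, and 7 of the 9 were below 0 under every scaling. With median centring, however, the hnRNP and snRNP medians were lower than the Lsm median of −0.80. The members of the U6 ring were close together, with Lsm4 at −0.63, Lsm8 and Lsm6 both at −0.56 and Lsm3 at −0.47. Lsm8, the subunit that sets the nuclear U6 ring apart from the cytoplasmic decay ring, had 2111 against 897. Lsm1, which takes its place in the decay ring, had 494 against 362, a log2 ratio of 0.02 whose sign depended on the scaling. Lsm11 and Lsm10, the proteins special to the U7 snRNP of histone mRNA processing, stood at −0.48 and −0.24. The decapping genes Lsm14b and Edc3 stood at −0.23 and 0.13.

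**Figure D2:**
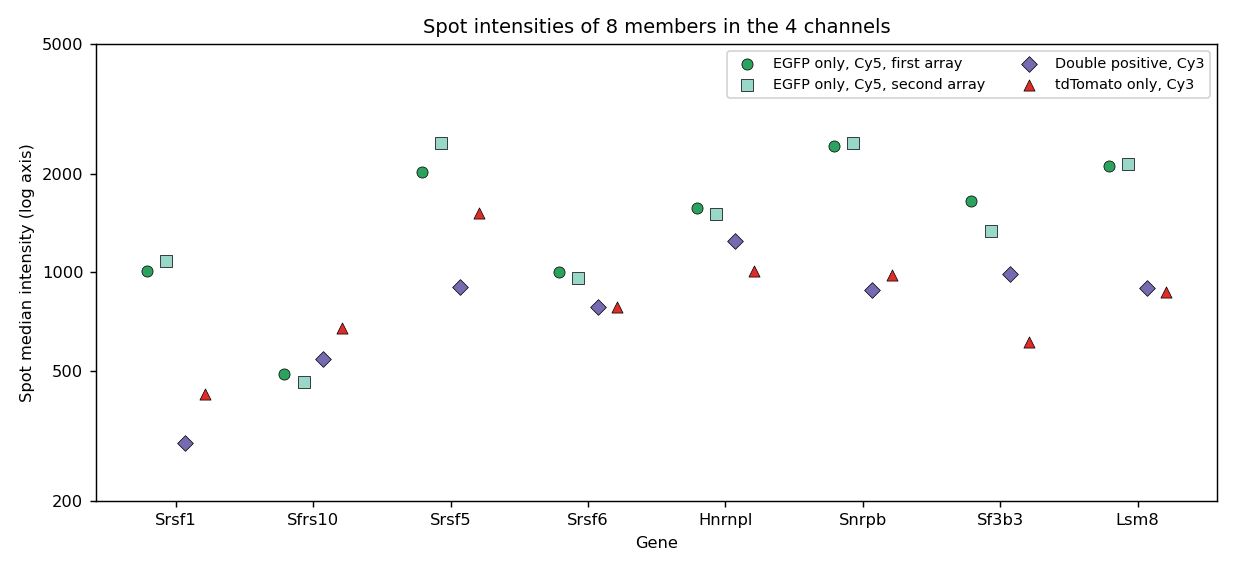
Spot median intensity (y axis, log scale, arbitrary units, as deposited) of 8 members (x axis) in the 4 channels, with 1 point per channel and no error bars, since each channel is 1 sample. Of the members shown, the EGFP-only values of both arrays lie furthest apart for Srsf5 (2031 and 2484) and Sf3b3 (1650 and 1340). Srsf1 is lower in both Cy3 channels (301 and 424), and Sfrs10 is the member shown whose tdTomato populations lie above EGFP only. Values are not normalized between Cy3 and Cy5, so a lower Cy3 point alone gives no direction.

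In the comparison of tdTomato-only with EGFP-only cells, which sets Atoh1 descendants sorted as EGFP-ve against Lgr5 cells, splicing genes stood lower as a group. This comparison shares the EGFP-only population with the one above, so the values are not independent of it. The 55 measured members had a median log2 ratio of −0.31, beside −0.01 over 11381 genes. None was at least 2-fold lower (1.19% of all genes) and 1, Sfrs10, was at least 2-fold higher (6.15%). Sfrs10 was also the one member above 0 under every scaling, beside 27.9% of all genes. At 1.5-fold, 9 members were lower, beside 6.66% of all genes, and 1 higher, beside 12.5%. Below 0 lay 47 of 55, beside 51.8% of all genes, and 46 stayed below under every scaling, beside 45.1%. These shares are again not matched for brightness. Hnrnpd and Snrpb2 exceeded the background limit in EGFP-only cells but fell just short of it in tdTomato-only cells. Hnrnpd had 80.1 in EGFP-only against 85.2 in tdTomato-only cells, beside background limits of 75.7 and 85.4. Its normalized level was 1.12-fold lower in tdTomato-only cells, an estimate at the floor and not a bound. For Snrpb2 no direction is given, since its deposited ratio was 0.14.

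The SR range was the widest, with 9 of 15 genes (60%) below 0 under every scaling, beside 45.1% of all genes. Counts of the families below stand beside the same share, not matched for brightness. Sfrs10 reached 2.03-fold (log2 1.02, scalings 0.55 to 1.14), a value that stayed short of 2-fold in the deposited ratios (0.91), under quantile normalization and with median centring. Srsf1 was 1.89-fold lower (log2 −0.92, scalings −0.92 to −1.41), Srsf4 1.52-fold and Srsf7 1.51-fold lower. Srsf5, with 2484 in EGFP-only against 1515 in tdTomato-only cells, stood at −0.09 only. Srsf2 had −0.21, Srsf6 0.21 and Srsf11 0.10, the last 2 with signs that depended on the scaling. The family median was −0.06 (−0.25 in the deposited ratios).

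The hnRNP median was −0.32 over 13 genes, and 11 of them were below 0 under every scaling. Hnrnpc and Hnrnpk were lowest at −0.65 each, with 8213 against 3034 and 800 against 385. Hnrnpu, a scaffold-attachment protein, stood at −0.53, Hnrnpab at −0.41, Hnrnph1, which binds G-rich runs, at −0.40 and Hnrnpa0 at −0.38. Hnrnpll was highest at 0.09. The 2 Hnrnpa3 probes again stood apart, at 0.26 and −0.63.

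The snRNP median was −0.35 over 11 genes, of which 10 were below 0 under every scaling. Snrpb was lowest, 1.69-fold lower with 2483 against 980. Snrpa (−0.57) and Snrpd1 (−0.56) came next, then Snrpc (−0.46) and Snrpd3 (−0.42). The remaining measured ring genes, Snrpn included, lay between −0.31 and −0.35, and Snrnp70 at 0.08. All 7 SF3 genes were below 0 under every scaling, with a median of −0.31, from Sf3b3 (−0.64; 1340 against 613) through Sf3b2 (−0.49) and Sf3b5 (−0.48) to Sf3a1 (−0.15). All 9 Lsm genes were also below 0 under every scaling. Their median was −0.48, with Lsm8 at −0.74 (2143 against 870), Lsm6 at −0.61, and Lsm4 and Lsm11 at −0.52. Lsm1 stood at −0.05.

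Marker genes of cell types also differed between the populations. The 9 measured genes of 10 listed for proliferating cells had medians of −0.76 in double-positive and −1.31 in tdTomato-only cells. Their summed normalized level was 25866 and 26229 in the EGFP-only channels, 16886 in double-positive and 11865 in tdTomato-only cells, and all 9 were above background in every channel. For lymphocytes, 7 of 10 listed genes were measured, with medians of 2.77 and 1.61. The summed level of the 9 annotated genes went from 1683 and 1691 in EGFP-only cells to 16292 in double-positive and 6928 in tdTomato-only cells. This sum includes Cd3e, not above background in any channel, and Cd2, not above background in EGFP-only cells. The 6 annotated Paneth cell genes of 8 listed, all above background in every channel, summed to 7543 and 8177 in EGFP-only, 268191 in double-positive and 216321 in tdTomato-only cells. The 8 goblet cell genes had medians of 2.35 and 3.56, the 5 enterocyte genes of 2.78 and 3.56, and the Lgr5 stem cell genes of −0.64 (8 measured) and −1.16 (7 measured, Axin2 not above background in tdTomato-only cells). The part of these cell types in the splicing values was not tested. In sorted bulk RNA, fewer cells of a type and less RNA per cell cannot be told apart.

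**Figure D3:**
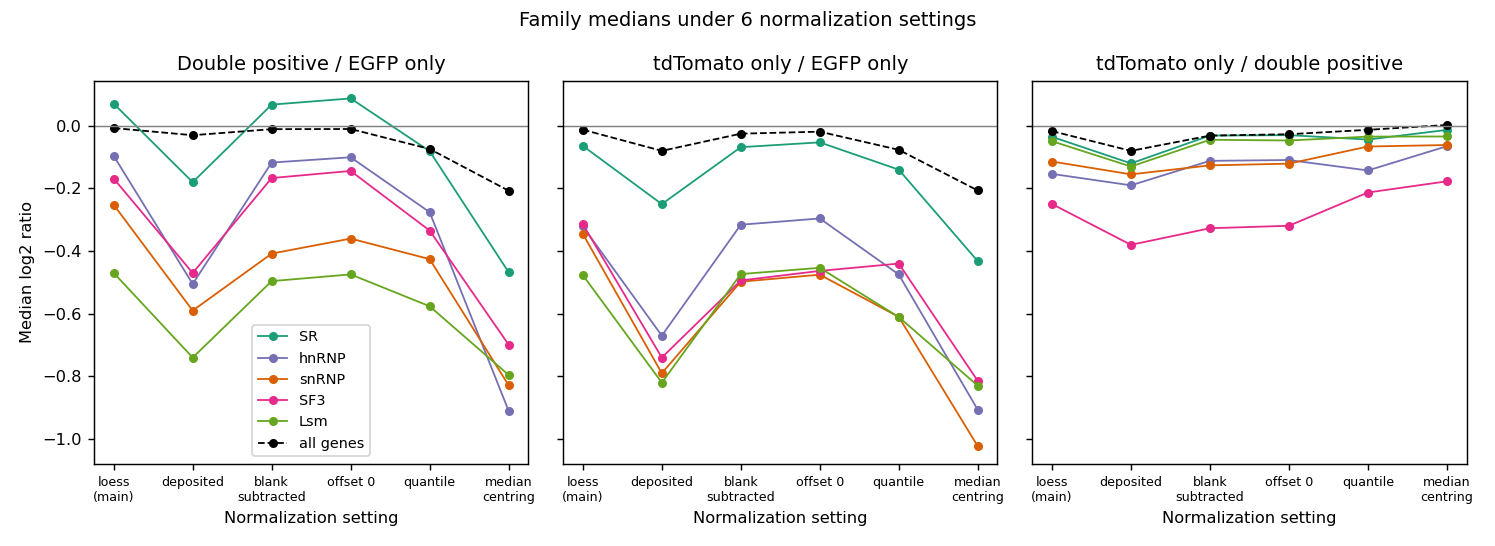
Median log2 ratio (y axis) of each family and of all measured genes (dashed) under 6 normalization settings (x axis), for the 3 comparisons. In both comparisons with EGFP only the SR line lies above the other families at every setting and crosses 0 in the first panel, and in the third panel the SF3 line is lowest at every setting.

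The comparison of tdTomato-only with double-positive cells is the difference between the 2 arrays. There both populations carried Cy3, so that a dye effect common to both arrays cancels. Splicing members differed little. After loess none of 55 was past 1.5-fold in either direction (2.67% of all genes higher and 1.8% lower), nor past 2-fold (0.813% and 0.274%), and the median log2 ratio was −0.09, beside −0.02 over 11311 genes. In the deposited ratios 3 were at least 1.5-fold lower, Sf3a2 (−0.70), Sf3b3 (−0.64) and Snrpf (−0.60), beside 7% of all genes. Below 0 lay 41 of 55, beside 54.3% of all genes. Under every scaling 37 stayed below 0 and 8 above, beside 47.3% and 37.0% of all genes.

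The SF3 family was lowest, with a median of −0.25 that ranged from −0.18 to −0.38 over the scalings. Sf3b3, whose product is a beta-propeller subunit of SF3b, was 1.48-fold lower in tdTomato-only cells (log2 −0.56, scalings −0.47 to −0.64), with Cy3 intensities of 990 and 613. Its EGFP-only spots also differed, 1650 against 1340, a normalized difference of −0.23 that exceeds the SD between the arrays, and its Cy3 levels alone differed by −0.80. Sf3a1 (−0.37), Sf3b2 (−0.32) and Sf3a2 (−0.25) followed, while Sf3b1, Sf3b5 and Sf3a3 lay between −0.07 and 0.02. The hnRNP median was −0.15. Hnrnpl (−0.38), Hnrnpa0 (−0.36), Hnrnpab (−0.34) and Hnrnpul1 (−0.34) were lowest and Hnrnpa3 (0.30) and Hnrnpdl (0.20) highest, and none of the 13 changed sign with the scaling. For Hnrnpa0 the EGFP-only level differed by 0.28 between the arrays and the Cy3 levels by −0.08, so that most of its ratio came from the EGFP-only channel.

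Of the 8 members above 0 under every scaling, 4 were SR genes, although 10 of 15 SR genes lay below 0. Srsf5 was 1.34-fold higher (log2 0.42), Srsf1 1.29-fold (0.37), Sfrs10 1.27-fold (0.34) and Sfswap, a regulator of its own splicing, 1.19-fold (0.25). The EGFP-only level of Srsf5 differed by 0.30 between the arrays, and set directly against each other its Cy3 levels differed by 0.72. The other 4 were Hnrnpa3, Hnrnpdl, Lsm14b and Lsm4. Srsf4 was lowest of the family at −0.28, and the median was −0.04. Under every scaling 8 of the 15 (53.3%) were below 0, beside 47.3% of all genes. The snRNP median was −0.11, from −0.25 for Snrpd2 to 0.05 for Snrpn and Snrpa. Here 6 of 11 (54.5%) were below 0 under every scaling, beside the same 47.3%. Most of the Snrpd2 ratio also came from the EGFP-only channel, which differed by 0.19 between the arrays, against −0.06 for the Cy3 levels. The Lsm median was −0.05, with Edc3 at −0.25, Lsm8 at −0.18, Lsm4 at 0.11 and Lsm14b at 0.15. For Lsm4 the EGFP-only difference of 0.38 was larger than its ratio. Snrpb (0.03), Lsm3 (−0.01) and Snrnp70 (−0.01) differed between both tdTomato populations by less than the SD of the repeated channel.

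**Figure D4:**
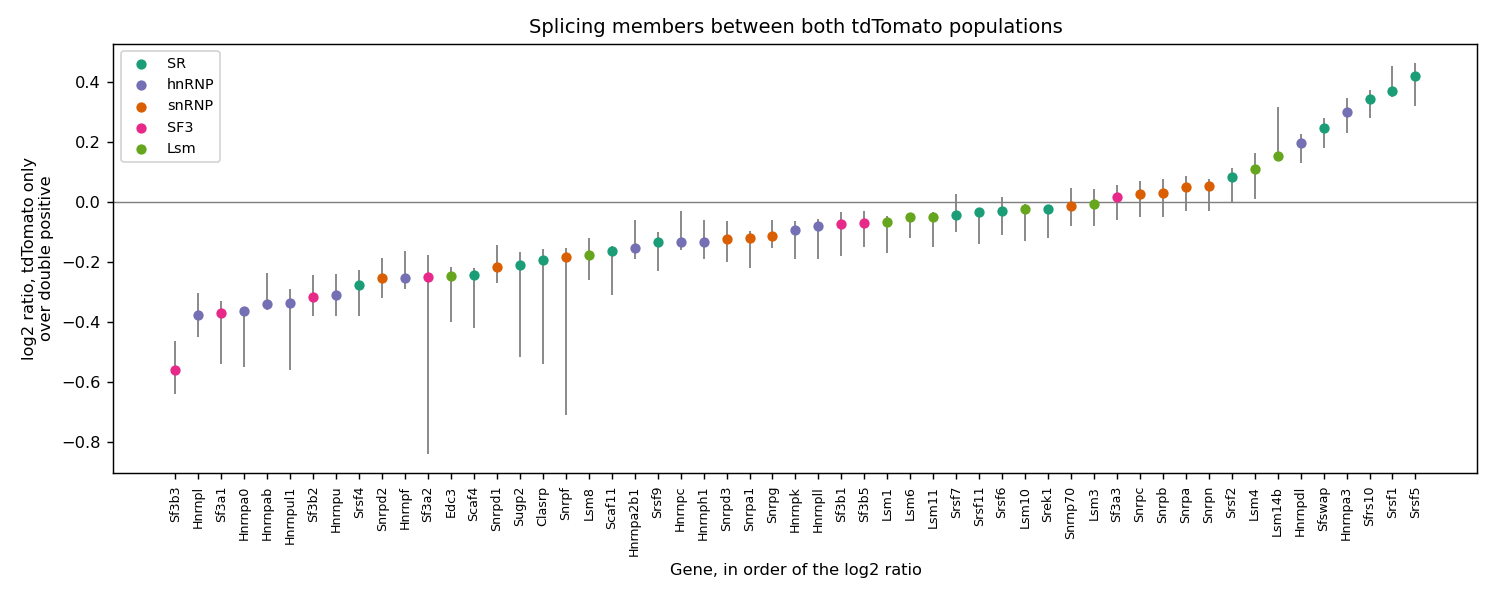
The log2 ratio of tdTomato-only over double-positive cells (y axis) for the 55 measured members in ascending order (x axis), coloured by family, with grey lines spanning the 6 scalings. The values run from −0.56 for Sf3b3 to 0.42 for Srsf5, and the long lines of Sf3a2 and Snrpf belong to dim spots.

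Other genes of the pathway, taken from lists and without the members, included a few genes far apart from the rest of their lists. The median of all genes was −0.01 in both comparisons with EGFP-only cells. Of the other spliceosome core genes, 62 of 73 were measured, with medians of −0.04 in double-positive and −0.16 in tdTomato-only cells. Of these, 2 and 1 were at least 2-fold higher, beside 5.1% and 6.15% of all genes, and none 2-fold lower, beside 0.34% and 1.19%. Ppil1, a cyclophilin-type isomerase of the spliceosome, stood far out, with 2085 in EGFP-only against 14033 in double-positive cells and 2011 against 9763 in tdTomato-only cells. Its log2 ratios were 3.71 and 3.06, and between 2.29 and 3.83 over all scalings. U2af2, which binds the polypyrimidine tract, had 1.11 in double-positive (141 against 235) and 0.59 in tdTomato-only cells, and Ctnnbl1 was lowest in the first comparison at −0.78 and Eftud2, the U5 GTPase, in the second at −0.88.

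Among other splicing regulators, 43 of 50 were measured, with medians of −0.01 and −0.20. Khdrbs3, an RNA-binding protein of the STAR family, was the only one past 2-fold, at 1.10 in double-positive cells, with 0.70 in tdTomato-only cells. Of all genes, 5.1% and 6.15% were at least 2-fold higher and 0.34% and 1.19% lower in these comparisons. Rbm10 was lowest in the first comparison (−0.91) and Ilf2 in the second (−0.80). The epithelial regulators Esrp1 and Esrp2 stood at 0.35 and 0.30 in double-positive and at 0.12 and 0.34 in tdTomato-only cells, values that were below 0 with median centring, and were named after their values were seen. Of 23 SR protein partners and kinases, 19 were measured, with medians of −0.02 and 0.02. None was past 2-fold, beside the same shares of all genes. Luc7l2, a U1-associated protein, was highest at 0.86 and 0.85, while Luc7l (−0.61) and Tra2a (−0.61) were lowest in double-positive and Rnps1 (−0.60) and the SR kinase gene Srpk1 (−0.59) in tdTomato-only cells.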

How the data were processed

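Amplified RNA of each sorted fraction was dye-labelled and hybridised to Toray arrays, per the labels' protocols. The authors deposited the median spot intensity in red and green for each array, per the file headers, with no background subtracted, judging from the values. Their deposited log2 ratios set the Cy3 over the Cy5 population, per the labels, with a median of 0 on each array. After removal of the median difference, subtracting the trimmed blank mean rebuilt them within 0.02 for 100% of 16986 and 17118 probes with a value. This settles their scale and direction. A constant shift would pass this check, so their centring is read from the median of 0 alone.

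Of 27456 spots, 23474 were probes. Intensities were corrected with normexp (offset 50, no local background) and then loess-normalized per array, controls and marked spots having weight 0 (limma 3.58.1, R 4.3.3). Left out were 2 marked probes of the first and 3 of the second array. A probe was above background when it exceeded the blank mean plus 2 SD. Probes above background were averaged per gene. The third ratio is the difference of both arrays. For genes above background in 1 population, the bright level was divided by the dim probe's level or, if higher, by the lowest level above background. Levels were taken after loess and Aquantile and are open to dye bias. The offset shrinks folds of dim genes. The number of arrays limits the precision.

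Symbols came from the platform annotation (16631 probes named, 6842 not) and were updated through GRCm38.p6 synonyms: of 57 member symbols 25 were current, 31 updated and 1 ambiguous. Members, lists and the rule for named genes were chosen with earlier results of these data known. The rule takes up to 4 highest and lowest members of each family per comparison, every member past 2-fold, above background in 1 population or with discordant probes, and up to 2 highest and lowest genes of each list. Other members are also named where a complex is described. Lists were counted without members. Steps were tested on simulated arrays. No test was made, since each comparison has 1 array.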

Additional observations from a re-analysis of the deposited data

How the results depend on the processing

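The median log2 ratio of all members stayed below 0 in all 3 comparisons under the 9 alternatives tried. In double-positive cells it was −0.47 in the deposited ratios, −0.34 after quantile normalization and −0.78 with median centring. In tdTomato-only cells it was −0.65, −0.44 and −0.78 under the same settings. Between both tdTomato populations it was −0.18 in the deposited ratios. Median centring moved the median of all genes to −0.21 in both comparisons with EGFP only, so relative to all genes the members stood at less than these values.

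Counts of members at least 2-fold lower in double-positive cells were 3 in the deposited ratios (3.57% of all genes) and 17 with median centring (6.29%). With the brightest probe per gene the count was 2, Srsf1 and the brighter Hnrnpa3 probe, and no share of all genes was taken. At 1.5-fold, 4 were lower (4.12%) and 1 higher (10.7%). In tdTomato-only cells 6 were lower in the deposited ratios (7.28% of all genes), 2 with the blank mean subtracted (5.21%), 21 with median centring (7.47%), 1 after quantile normalization (2.21%) and 9 at 1.5-fold (6.66%). Under median centring the brightest class of spots, which holds most member probes, had medians of −0.67 and −0.65 over all probes. Those higher dropped to 0 in the deposited ratios, after quantile normalization and with median centring. The SR median in double-positive cells reversed to −0.18 in the deposited ratios, −0.081 after quantile normalization and −0.47 with median centring. The cause was not tested. Without replicates, shifts were set against the SD of the repeated EGFP-only channel, 0.083, which was 0.09 with the stricter limit and 0.07 without a filter, 2 settings added after seeing the data. No paired analysis was possible because each group has 1 sample, and no replicate could be left out.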

Other observations

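Genes listed for snRNP assembly and import stood low as a group. The list is broader than its name. It also holds Nop56, Nop58 and Fbl of the small nucleolar ribonucleoproteins, and Larp7 and Mepce of a ribonucleoprotein outside the spliceosome. Of 25 listed, 24 were measured, and 20 were below 0 in double-positive and 21 in tdTomato-only cells under every scaling. The shares of all genes were 45.2% and 45.1%, not matched for brightness. The medians were −0.23 and −0.40, and 3 and 9 were at least 1.5-fold lower (4.12% and 6.66% of all genes). Nop56 (−0.69) and Fbl (−0.66) were among those 9. None was past 2-fold, beside 5.1% and 6.15% of all genes higher and 0.34% and 1.19% lower. Ddx20, a helicase of the SMN complex, was lowest in double-positive cells at −0.77, and Ncbp2, of the cap-binding complex, stood at −0.71. In tdTomato-only cells the lowest were Prmt5 (−0.80; 1190 in EGFP-only against 496) and Wdr77 (−0.79; 921 against 398), which together methylate Sm proteins before ring assembly. Kpnb1, the import receptor, was highest in double-positive cells at 0.40, with a value of −0.06 in tdTomato-only cells.

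The decapping and decay partners of the cytoplasmic Lsm ring stood near 0. The 9 measured of 11 listed had medians of −0.01 and 0.00, and none was past 1.5-fold in either comparison. Of all genes, 10.7% were higher and 4.12% lower in double-positive cells, and 12.5% and 6.66% in tdTomato-only cells. At these shares a list of 9 genes would hold few. Edc4, the decapping scaffold, was highest at 0.33 and 0.25, and the nuclear exonuclease gene Xrn2 was lowest in tdTomato-only cells at −0.50.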
